A study of Drosophila melanogaster with 12 samples.

Results

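R-loop regions at the telomere-proximal ends of 4 chromosome arms were described from DRIP-seq peaks of *Drosophila* S2 cells. The peaks of the 4 lists obtained without RNase H (RNH) were merged wherever they shared at least 1 bp, which gave 12155 regions. Regions that start within the first 1.5 Mb of 2L, 3L or X, or beyond the first 26.4 Mb of 3R, were taken as telomere-proximal (dm3 coordinates throughout, 1-based). There were 387 of them, 89 on 2L, 185 on 3L, 91 on 3R and 22 on X, and the other 5772 regions of the same arms served for comparison. The ends span 6.01 Mb and the rest of these arms 91.8 Mb.

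S2 cells, a cultured line of embryonic origin, were either left untreated or depleted of the linker histone dH1 by RNAi, for which 100 μg of dsRNA was added on day 1, day 4 and day 7 of 8 days of culture. DRIP-seq pulls down RNA:DNA hybrids with 4 μg of S9.6 antibody, here from purified genomic DNA that had been treated with RNase A and sonicated to between 500 and 1000 bp. In each condition, 2 biological replicates were analyzed, each with a library left without RNH, a library digested with 6 U of RNH before the pull-down, and an input. The 4 groups are therefore control untreated cells and dH1-depleted cells, each without and after RNH. The labels call the untreated cells WT and name no control dsRNA for them, and the depletion itself cannot be read from peak lists.

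R-loops form when an RNA hybridizes to a DNA strand and displaces the other strand, and RNH degrades the RNA of such hybrids. dH1 is the linker histone of somatic *Drosophila* cells and binds the nucleosome where the DNA enters and leaves it. *Drosophila* has no telomerase. Its telomeres are arrays of the retrotransposons HeT-A, TART and TAHRE, followed inward by telomere-associated satellite repeats and then by the outermost genes of the arm.

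The lists without RNH held 4016 and 3807 peaks in untreated replicates 1 and 2, and 9368 and 5526 peaks in dH1-depleted replicates 1 and 2. After RNH they held between 442 and 1001 peaks. To locate R-loops, the authors kept only peaks whose signal fell upon RNH in both replicates. That filter was not applied here, so an R-loop region means any merged peak called without RNH. The number of reads is unknown, so numbers of peaks carry no correction for depth, and a region without a peak is below the calling threshold rather than shown to lack hybrids. The list of dH1-depleted replicate 1 stands apart. Its peaks had a median width of 219 bp at the ends, against 1322 to 1454 bp in the other 3 lists without RNH, and its weight in the results below is given where they rest on it. A read counted at every site it aligned to, so copies of a repeat share reads. Libraries were the unit of every test. With 4 libraries an exact sign-flip test cannot go below *p* = 0.13, and with 2 libraries against 2 an exact permutation test cannot go below *p* = 0.33 (both 2-sided), so none of the differences reported here could reach 0.05.

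As a whole, the ends were slightly denser in peaks than the rest of the arms in all libraries but that of the narrow peaks. In untreated cells, 146 and 137 peaks lay at the ends, or 24.3 and 22.8 per Mb, against 21.6 and 20.0 per Mb in the rest. In dH1-depleted cells there were 260 and 173 peaks, or 43.3 and 28.8 per Mb, against 45.1 and 26.3 per Mb. The log2 ratio of the density at the ends to that in the rest averaged 0.11 ± 0.12 (SD, n = 4; exact sign-flip test, *p* = 0.25), and 0.16 ± 0.03 without the narrow list (SD, n = 3, above 0 in 3 of 3; exact sign-flip test, *p* = 0.25, the smallest that 3 libraries allow). The share of the peaks of these arms that lay at the ends was 6.86% (Wilson 95% interval, 5.86 to 8.01), 6.95% (5.91 to 8.16), 5.90% (5.24 to 6.64) and 6.68% (5.78 to 7.70) in the same order, for ends that make up 6.14% of the length. These intervals, like all those below, cover counting error only.

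This near-equality came from ends that differed widely. The end of 3L was dense, those of 2L and 3R were closer to the rest of their arms, and that of X was sparse. The 3L end held 47.8% of all telomere-proximal regions and the X end 5.68%, though both are 1.5 Mb long.

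**Figure D1:**
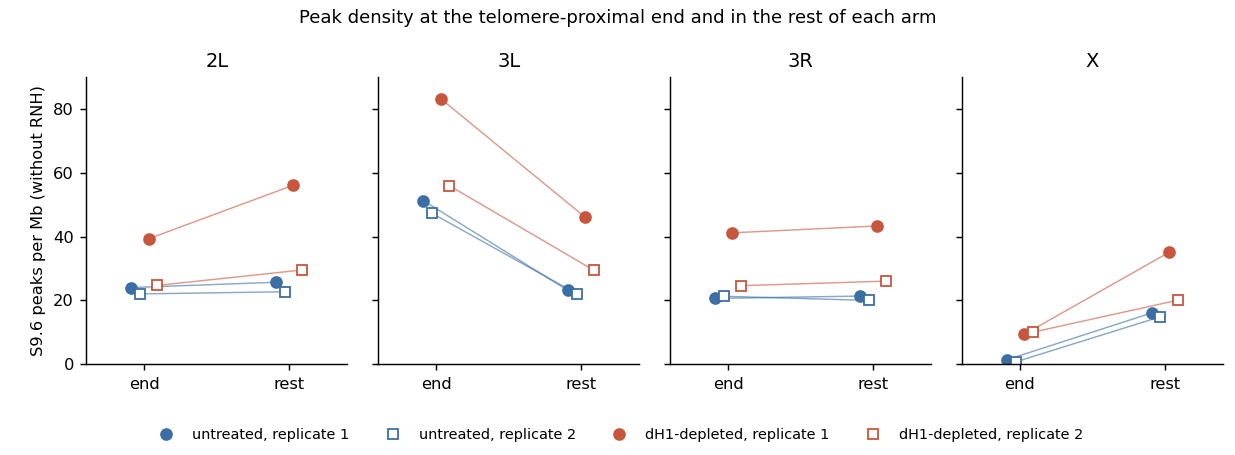
S9.6 peaks per Mb (vertical axis, linear from 0) at the telomere-proximal end and in the rest of 2L, 3L, 3R and X for the 4 libraries without RNH, where each line joins the values of a library. All lines fall from the end to the rest on 3L and rise on X, and those of 2L and 3R are nearly flat except for a rise on 2L in dH1-depleted cells.

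At the 3L end, 77 and 71 peaks were called in untreated cells and 125 and 84 in dH1-depleted cells. Per Mb, these were 51.3, 47.3, 83.3 and 56.0 peaks, and the rest of 3L had 23.1, 22.1, 46.0 and 29.4. Every library was about as far above the rest of the arm, by 2.01-fold on average (log2 1.01 ± 0.14, SD, n = 4, higher in 4 of 4; exact sign-flip test, *p* = 0.13 and 0.167 after Benjamini-Hochberg adjustment over the 4 arms). Neighbouring regions at this end were separated by a median of 3703 bp, against 5759 bp in the rest of 3L, and the regions covered 14.6% of the end. Merged without the narrow list, they were 115 regions with a median gap of 5170 bp, against 7850 bp in the rest. The high density did not stop at 1.5 Mb. In windows of 1.5 Mb counted from the end, untreated replicate 1 had 77, 77, 84 and 105 peaks in the first 4 windows and 18 in the fifth, and dH1-depleted replicate 2 had 84, 87, 81, 109 and 32. Among the 16 whole windows of 3L, the outermost was among the 4 densest in every list.

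The ends of 2L and 3R were closer to the level of their arms. At the 2L end, 36 and 33 peaks were called in untreated cells and 59 and 37 in dH1-depleted cells, and the log2 ratio to the rest of 2L was -0.23 ± 0.21 (SD, n = 4, below 0 in 4 of 4; exact sign-flip test, *p* = 0.13, adjusted 0.167), and -0.13 ± 0.11 without the narrow list (SD, n = 3). At the 3R end there were 31, 32, 62 and 37 peaks in the same order, with a log2 ratio of -0.03 ± 0.08 (adjusted *p* = 0.625, exact sign-flip test). The median gap between neighbouring regions was wider at both ends, at 9066 bp on 2L and 9461 bp on 3R, against 4748 and 7480 bp in the rest. Without the narrow list these were 13408 and 13799 bp, against 6971 and 9936 bp. Regions per Mb differed less on 3R, with 60.5 at the end and 64.7 in the rest, against 59.3 and 76.5 on 2L.

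The X end was nearly empty of peaks in untreated cells. Untreated replicates 1 and 2 had 2 peaks and 1 peak, whereas dH1-depleted replicates 1 and 2 had 14 and 15. Both dH1-depleted libraries were therefore above both untreated ones. In untreated cells these are 1.33 and 0.667 peaks per Mb, against 16.0 and 14.8 in the rest of X. In dH1-depleted cells they are 9.33 and 10.0 per Mb, against 35.1 and 20.0. The X end was thus below the rest of X in 4 of 4 libraries, by 6.70-fold on average (log2 -2.74 ± 1.57, SD, n = 4; exact sign-flip test, *p* = 0.13, adjusted 0.167). Its 22 regions covered 2.51% of the end, with a median gap of 23740 bp and a largest gap of 253830 bp.

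Upon dH1 depletion the number of peaks at the X end was 10.2-fold higher (log2 3.36), and that in the rest of X was 1.72-fold higher (log2 0.78). Relative to the rest of X, the end was 5.96-fold higher in dH1-depleted cells (exact permutation test, *p* = 0.33, which is the smallest the design allows). At the other ends the peak number was 1.36-fold (2L), 1.39-fold (3L) and 1.52-fold (3R) higher in dH1-depleted cells, less than the 1.69-fold, 1.63-fold and 1.63-fold of the rest of those arms. With dH1-depleted replicate 2 alone, which leaves out the narrow peaks, they were 1.07-fold, 1.14-fold and 1.17-fold, against 1.22-fold, 1.30-fold and 1.26-fold in the rest. All 4 ends had more peaks in both dH1-depleted than in both untreated libraries, but so did 77.8% of all 63 whole windows of 1.5 Mb on these arms. Over these windows the median log2 difference was 0.78, and the X end, at 3.36, was the highest of the 63. Next came another sparse window of X, 6 Mb from the end, with 1, 1, 16 and 4 peaks and a log2 difference of 3.00. The third, 10.5 Mb from the end of X, had 4, 3, 21 and 12 peaks (log2 2.20). This ranking is by ratio, which is large where untreated cells have few peaks. In number, the 3L end (77, 71, 125 and 84 peaks) gained more peaks than the X end (2, 1, 14 and 15) only when the narrow list was counted. In dH1-depleted replicate 2 alone, 84 peaks stood against 77 and 71 on 3L, and 15 against 2 and 1 on X, the larger gain. The ends of 3R, 3L and 2L ranked 42, 49 and 51. When the narrow peaks were left aside and dH1-depleted replicate 2 was compared alone with the untreated libraries, the X end was still the highest, with a log2 difference of 3.41 against a median of 0.34.

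**Figure D2:**
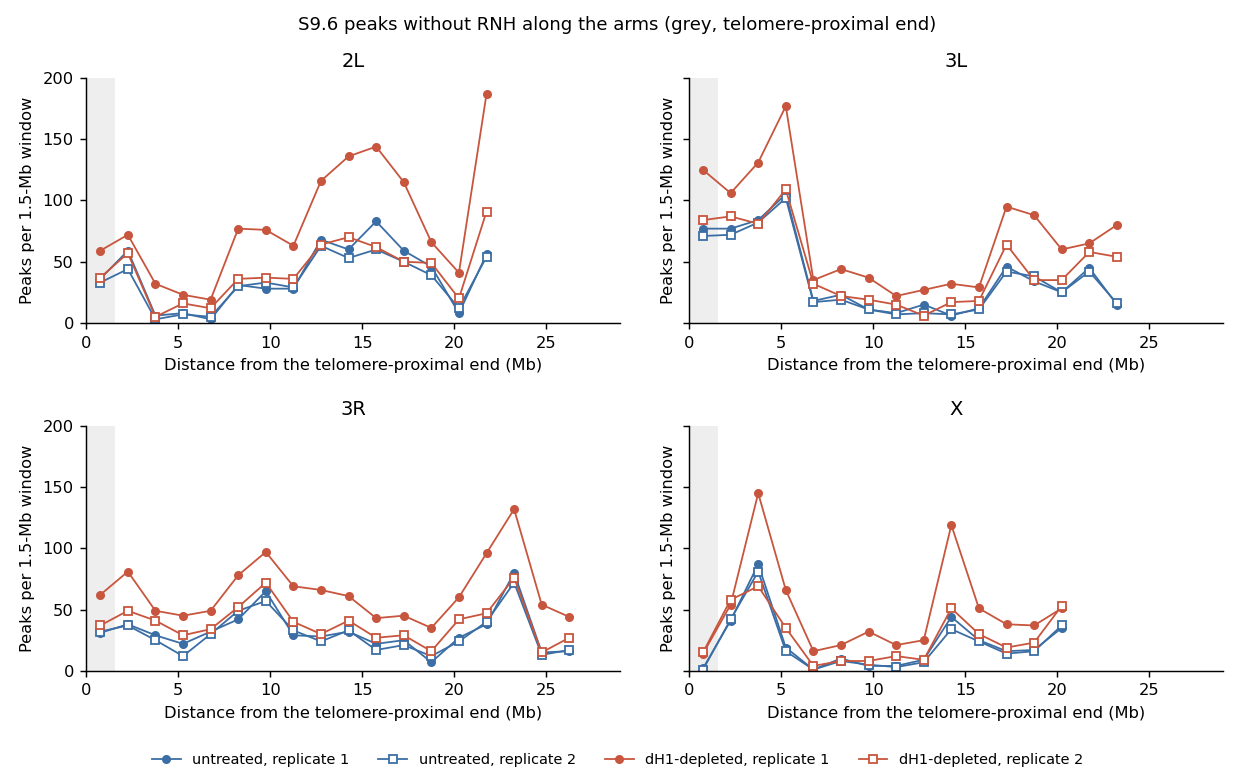
Number of S9.6 peaks without RNH in whole windows of 1.5 Mb (vertical axis) against the distance of the window's centre from the telomere-proximal end in Mb (horizontal axis), per library, with the telomere-proximal window shaded. The first 4 windows of 3L are all dense, and the first window of X holds 1 or 2 peaks in untreated cells and 14 or 15 in dH1-depleted cells.

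The size of this difference depended on how it was measured. Peaks covered 7450 and 6170 bp of the X end in untreated cells and 5781 and 35179 bp in dH1-depleted cells, so in covered length the conditions overlapped (log2 1.07; exact permutation test, *p* = 1), with the narrow list as the lowest. With the 3807 peaks of highest score from each list, the X end had 2, 1, 6 and 7 peaks. With peaks of score 100 and above it had 1, 1, 6 and 5. These numbers count peaks, and several peaks of the narrow list can lie in the same region. The 14 peaks of that list lay in 9 regions. Counted as regions called, the X end had 2, 1, 9 and 15. Extending the end to 2 Mb gave 17, 15, 28 and 36 peaks (log2 0.99), as the next window inward is well filled in untreated cells too. Ranked by score within their own list, the X-end peaks of dH1-depleted replicate 1 had a median percentile of 45.4, against 48.0 in the rest of X, and those of replicate 2 of 28.5, against 45.9. They seldom coincided. Of the 22 regions, 20 had no peak in untreated cells, or 90.9%, against 56.5% in the rest of X and 61.1% of all regions. This share restates the peak numbers, since the regions were merged from the same lists and untreated cells gave only 2 peaks and 1 peak here. Of these 20, 13 were called only in dH1-depleted replicate 2, 6 only in replicate 1 and 1 in both.

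**Figure D3:**
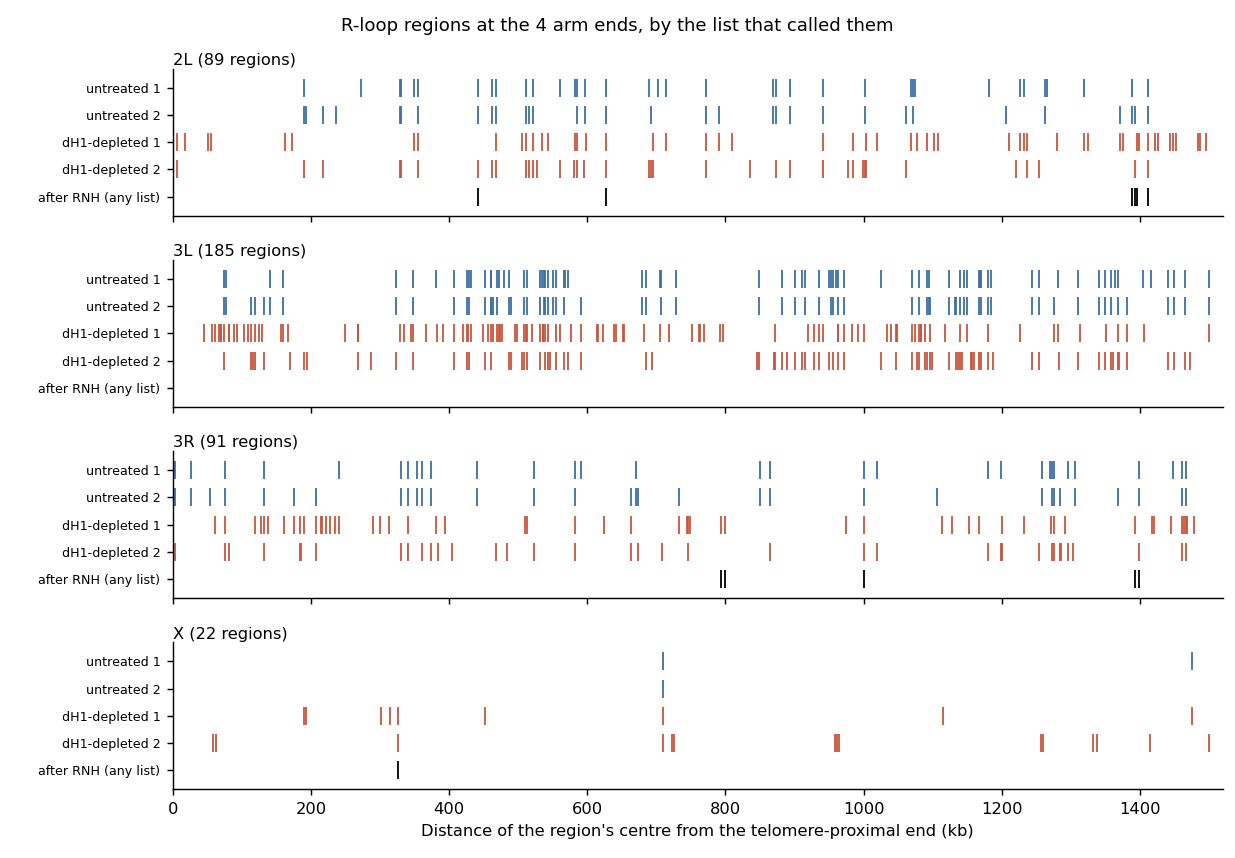
Position of the 387 regions as the distance of their centre from the telomere-proximal end in kb (horizontal axis), with a tick in the row of each library without RNH that called the region and, in the lowest row, a tick where a peak of any RNH-treated list overlaps it. The 3L end holds the most ticks and none after RNH, and the X end holds 2 positions with untreated ticks.

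Regions were spread unevenly within the ends. In consecutive steps of 300 kb from the end, 3L had 31, 51, 27, 51 and 25 regions, 2L had 11, 21, 13, 16 and 28, 3R had 23, 19, 13, 9 and 27, and X had 4, 4, 3, 4 and 7. Without the narrow list these were 13, 31, 12, 38 and 21 on 3L, 6, 17, 12, 11 and 13 on 2L, 11, 13, 8, 4 and 17 on 3R, and 2, 1, 3, 3 and 7 on X. No end had its most regions in the outermost step, with or without that list. In the outermost 300 kb of 3L the narrow list gave 24 peaks, against 4 and 7 in untreated cells and 10 in dH1-depleted replicate 2. Within 100 kb of the end there were 4 regions on 2L, 12 on 3L, 6 on 3R and 2 on X, and 1, 2, 5 and 2 without the narrow list.

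None of the 4 outermost regions was called in all 4 lists without RNH, which is a rare call anywhere. It was made for 9.56% of the regions at the ends, 9.22% in the rest of the arms and 12.9% of all regions. On 2L it was 2L:4778-6158, called only in dH1-depleted cells, with scores of 54.79 and 115.77. On 3L it was 3L:44956-45141, a narrow region of dH1-depleted replicate 1 (57.93), and on X it was X:57236-59238, found in dH1-depleted replicate 2 alone (84.01). On 3R it was 3R:27898797-27905050, with scores of 194.72 and 102.61 in untreated cells and 433.04 in dH1-depleted replicate 2. The latter closes at the last called position of 3R, which was taken as the end of the arm. None of these 4 regions had a peak after RNH, as was so for 96.9% of the regions at the ends and 88.7% of all regions.

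Most telomere-proximal regions were called in few libraries. Of the 387, 223 were called in a lone list without RNH, 76 in 2 lists, 51 in 3 and 37 in all 4. Regions of a lone list made 57.6%, against 62.6% in the rest of the arms and 61.6% of all regions, and those of 2 lists made 19.6%, against 14.9% and 13.4%. The 37 make 9.56% (7.02 to 12.9), against 9.22% in the rest of the arms and 12.9% of all 12155 regions. The narrow list alone accounted for 144 of the 223, dH1-depleted replicate 2 for 54, and untreated replicates 1 and 2 for 18 and 7. Of the peaks of untreated replicate 1 at the ends, 72.6% (64.9 to 79.2) were overlapped in replicate 2, and 76.6% (68.9 to 82.9) in the reverse direction. The shares for dH1-depleted cells were 33.8% (28.4 to 39.8) and 34.1% (27.5 to 41.4). Both of the latter pair the narrow list with dH1-depleted replicate 2, so they are not set against those of untreated cells. The corresponding values in the rest of the arms were 70.0%, 76.0%, 31.0% and 35.9%, all within 4 percentage points of those at the ends.

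Regions called in both libraries of a condition and in neither of the other were few. Only 14 regions, or 3.62% (2.17 to 5.98), were of dH1-depleted cells, against 3.52% in the rest and 4.25% of all regions. There were 24 regions of untreated cells, or 6.20% (4.20 to 9.06), against 3.57% (3.12 to 4.08) in the rest and 2.41% of all regions. The share of regions seen only in untreated cells was thus above both, and regions, unlike libraries, are not replicates, so no test was made. Both counts rest on the narrow list, which must hold a peak in the regions of dH1-depleted cells and none in those of untreated cells. By end, there were 5 regions of dH1-depleted cells and 5 of untreated cells on 2L, 5 and 12 on 3L, 3 and 7 on 3R, and 1 and 0 on X. The regions of untreated cells had a median score percentile within the list of 21.5 and 37.2 in replicates 1 and 2, and those of dH1-depleted cells of 61.1 and 39.8. The 37 regions called in all lists had median percentiles between 64.0 and 71.2.

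In dH1-depleted cells, the 3 such regions of highest rank lay on 3 different arms. X:322183-328932 had scores of 105.8 and 342.04 in replicates 1 and 2, and it was the only one of the 14 with a peak after RNH in dH1-depleted cells (53.59, in replicate 2). 2L:1003632-1004858 had scores of 116.31 and 120.47, and 3R:27720333-27721728 of 73.68 and 165.94. In untreated cells, the 3 of highest rank were all on 3L. 3L:548213-551267 had scores of 123.97 and 213.13, 3L:536172-538107 of 130.41 and 120.45, and 3L:1144632-1147325 of 103.95 and 112.76. Scores grow with depth and are not compared between lists.

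At each end, a region was called in all 4 lists without RNH. On 2L the one of highest rank was 2L:626086-628422, with scores of 1950.89, 1879.14, 448.75 and 1936.65 (untreated 1 and 2, dH1-depleted 1 and 2). On 3L it was 3L:402405-410579, 8175 bp wide, with scores of 322.85, 1392.93, 811.68 and 1034.41 and no peak after RNH. On 3R it was 3R:26899625-26908867, with scores of 308.67, 167.36, 400.11 and 168.61. On X it was X:706130-712355, with scores of 604.44, 442.41, 247.16 and 936.88. The latter was the only X region called in all lists and the sole peak of untreated replicate 2 at that end.

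Regions at the ends were about as wide as the others. Their median width was 1065 bp (range, 90 to 9243), against 1021 bp in the rest of the arms. Without regions called by the narrow list alone, the medians were 1401 and 1303 bp. Median peak widths at the ends and in the rest were 1322 and 1290 bp in untreated replicate 1, 1344 and 1253 bp in untreated replicate 2, 219 and 221 bp in dH1-depleted replicate 1, and 1454 and 1295 bp in dH1-depleted replicate 2. The log2 ratio was 0.07 ± 0.08 (SD, n = 4, above 0 in 3 of 4; exact sign-flip test, *p* = 0.25). Regions called in more lists were wider, from a median of 239 bp in regions of a lone list to 2011 bp in those of all 4, and from 243 to 1979 bp in the rest. The narrow list gave most regions of a lone list, and a region merged from more peaks can only be wider. Without that list, the medians at the ends were 1193 bp in 1 list, 1418 bp in 2 and 1777 bp in 3, against 1124, 1320 and 1720 bp in the rest. The widest was 3R:26899625-26908867, of 9243 bp.

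Peaks at the ends ranked slightly higher by score within their list in 3 of 4 libraries. The median percentile at the ends and in the rest was 47.3 and 42.5 in untreated replicate 1, 48.2 and 42.4 in untreated replicate 2, 39.7 and 40.3 in dH1-depleted replicate 1, and 49.2 and 44.5 in dH1-depleted replicate 2. The difference averaged 3.67 ± 2.91 percentile points (SD, n = 4; exact sign-flip test, *p* = 0.25). It turned to -1.89 among peaks of score 100 and above.

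After RNH few peaks were left at the ends. Untreated cells had 2 and 4 and dH1-depleted cells 2 and 14. These are 73.0 and 34.3 times fewer peaks than without RNH in untreated replicates 1 and 2, against 27.9 and 33.9 times in the rest of the arms. In dH1-depleted replicates 1 and 2 there were 130 and 12.4 times fewer, against 82.9 and 10.7 times. The log2 of the number after RNH over that without was lower at the ends by 0.36 ± 0.52 on average (SD, n = 4, lower in 3 of 4; exact sign-flip test, *p* = 0.25), a difference smaller than the spread between libraries. In covered length the fall was 23.4, 13.1, 4.52 and 5.21 times at the ends and 12.5, 17.7, 6.19 and 6.76 times in the rest, in the order of the lists above, so by this measure ends fell more in 1 of 4 libraries.

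**Figure D4:**
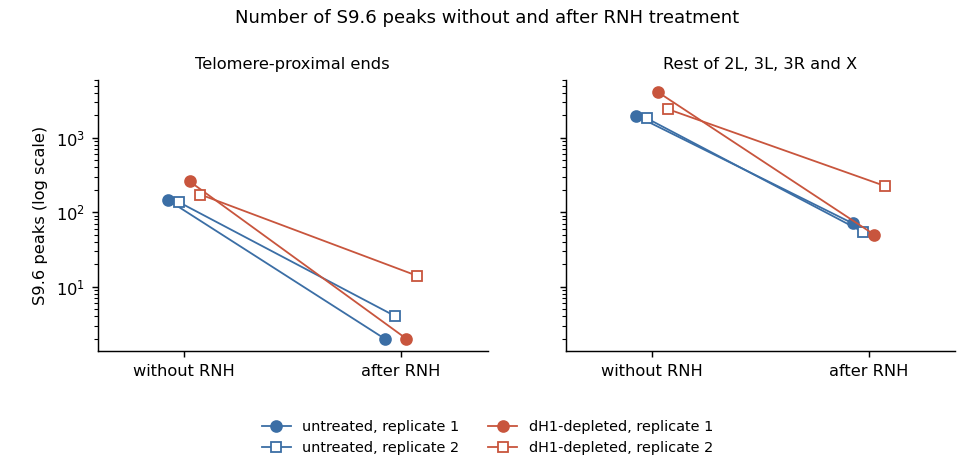
Number of S9.6 peaks (vertical axis, log scale) without RNH and after RNH at the telomere-proximal ends (left) and in the rest of 2L, 3L, 3R and X (right), where each line joins the lists of a replicate. All lines fall, to between 2 and 14 peaks at the ends, and dH1-depleted replicate 2 keeps the most in both panels.

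Of the peaks at the ends without RNH, 2 of 146, 2 of 137, 3 of 260 and 5 of 173 were overlapped by a peak of the RNH-treated list of the same replicate. These shares of 1.37%, 1.46%, 1.15% and 2.89% compare with 2.22%, 2.02%, 1.98% and 3.02% in the rest. They were lower at the ends in 4 of 4 replicates, by 0.59 ± 0.33 percentage points (SD, n = 4; exact sign-flip test, *p* = 0.13). The numbers are small, and with only scores of at least 100 the ends were lower by 0.05 points (*p* = 0.875, exact sign-flip test). Any RNH-treated list overlapped 12 of the 387 regions, or 3.10% (1.78 to 5.34), against 3.45% in the rest and 11.3% of all regions. Of the 12 regions, 6 were on 2L, 5 on 3R, 1 on X and 0 of 185 on 3L.

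Of the 387 regions, 1 was called in all 8 lists, against 5 of 5772 in the rest of the arms and 94 of all 12155 regions. It was 3R:26899625-26908867. After RNH its peak had scores of 1200.93 and 587.70 in untreated cells and of 85.06 and 518.39 in dH1-depleted cells. The 4 RNH-treated peaks had nearly the same borders, with starts within 56 bp and ends within 29 bp of each other, and were 8178 to 8229 bp wide. At 2L:626086-628422, RNH-treated peaks were called in both untreated libraries (1363.88 and 1294.73) and in neither dH1-depleted library, although the region had a peak in both without RNH.

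A wide interval on 3R was called as a whole only after RNH, in replicate 2 of both conditions. Its peak ranked at percentile 5.43 of its list in untreated and 86.77 in dH1-depleted cells. RNH-treated peaks at 3R:27105152-27111247 (untreated replicate 2, score 55.55) and 3R:27105153-27111280 (dH1-depleted replicate 2, score 182.59) overlapped only a pair of narrow peaks of dH1-depleted replicate 1, at 3R:27105192-27105457 (107.13) and 3R:27111042-27111281 (101.32), which sit at their borders. The fifth region of highest rank here was 2L:1410567-1413357, called in all 4 lists without RNH (155.06, 108.1, 310.68 and 216.79) and after RNH in dH1-depleted replicate 2 (89.65).

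Some RNH-treated peaks at the ends lay on no region at all. Of 22 RNH-treated peaks at the ends, 13 overlapped a telomere-proximal region and 9 did not. The matching share in the rest of the arms was not computed, so this is not read as a trait of the ends. Of these 9, 8 came from dH1-depleted replicate 2, 7 of them on 3L and 1 on 2L, and the other came from untreated replicate 2 on 3L. All 8 RNH-treated peaks of the 3L end, 7 of them from the same library, were thus outside the 185 regions called there without RNH.

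The borders of the ends are set by position only. Just inside and just outside them lay 2L:1495830-1495984 (dH1-depleted replicate 1, 51.32) and 2L:1508796-1510564 (dH1-depleted cells, 53.88 and 66.62). On 3L these were 3L:1499133-1501518, called in 3 lists with scores of 69.68, 55.83 and 74.59, and 3L:1505734-1513961, called in all 4 with scores of 887.9, 741.7, 623.75 and 923.47. On 3R they were 3R:26426859-26427017 (51.61) and 3R:26397355-26397527 (62.98), both of dH1-depleted replicate 1. On X they were X:1499621-1500648 (dH1-depleted replicate 2, 70.4) and X:1632111-1632272 (dH1-depleted replicate 1, 50.49), with a wide gap between them.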

How the data were processed

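The authors aligned reads with Bowtie 0.12.5 to dm3, allowing 2 seed mismatches and keeping all sites of a read up to 10000. Duplicates were removed with sambamba. Peaks were called with MACS 1.4 library by library, each S9.6 library against its replicate's input, at a default *p* of 1e-05, and replicates were not pooled. For each peak the authors deposited its position and a score, 10 times the negative log10 of its *p*, which is at least 50 and served for ranks and filters within lists.

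Lists were assigned to libraries by their labels. Arm length was the last peak end over the 8 lists. Scripts ran in Python 3.11.15 (pandas 2.3.3, NumPy 2.4.6, SciPy 1.17.1, matplotlib 3.10.9) and were tested on simulated data. Folds between conditions are differences of mean log2 numbers, and 0.5 was added to numbers only for the log2 change upon RNH. Regions were named by rule: the outermost, the one of highest rank called in all 4 lists and those next to the border at each end, the widest, the 3 of highest rank called in a condition only, and the 5 overlapped by most RNH-treated lists. Members and this rule were chosen with earlier results of these data known, and the alternatives for the ends of X and 3L were added after seeing the data. Alternatives changed the score limit, the length of the ends, the comparison set, the arms, list length, overlap (at least 50% of the shorter interval), peak width, pooling of arms, pairing and replicates. Genes and sequences were not assigned, since the gene table used here follows another genome release. Read coverage over the regions was not analysed here.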

Additional observations from a re-analysis of the deposited data

How the results depend on the processing

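Depth is unknown and each condition has 2 libraries, so *p* stayed at or above the smallest value the exact tests allow in every setting. The density at the ends relative to the rest (log2 0.11) turned to -0.50 (exact sign-flip test, *p* = 0.13) when the 4 arms were averaged with equal weight, which gives the sparse X end the weight of the others, and without X it was 0.36. The difference of this ratio between conditions (-0.15) turned to 0.48 with the same averaging. The score rank (3.67) turned to -1.89 among peaks of score 100 and above. The loss of peaks upon RNH relative to the rest (-0.36) turned to 0.25 with that limit and to 0.091 in base pairs, and the cause was not tested. Regions called only in dH1-depleted cells (14) were 3 with that limit, 9 with ends of 1 Mb and 5 with lists of equal length. Those called only in untreated cells (24) were 8, 16 and 32 in the same order. In each of these settings the ends held fewer than the 387 regions of the main setting. A lower count is therefore not by itself a lower share. As shares of the regions at the ends, both were lower at score 100 and above and slightly higher with ends of 1 Mb. With lists of equal length the share fell for dH1-depleted cells. For untreated cells it rose well above that of the main setting, with 32 regions instead of 24 out of a smaller total. The matching shares in the rest of the arms were not computed for these settings. Width, the overlap with RNH-treated peaks, the X end and the 3L end kept their direction in every setting run. Leaving out a library gave 0.08 to 0.16 for density, -0.24 to -0.05 for its difference between conditions, 0.04 to 0.10 for width, 2.96 to 5.10 for score rank, -0.74 to -0.50 points for overlap with RNH-treated peaks, -0.53 to -0.12 for peak number upon RNH, 2.86 to 3.86 for the X end and 0.96 to 1.06 for the 3L end. With a lone replicate of each condition, the share of regions called in all remaining lists differed from the rest by -2.45 to 5.85 points. There were then 78 to 183 regions only in dH1-depleted and 41 to 94 only in untreated cells, as fewer lists had to agree. These counts too were out of fewer than 387 regions, so as shares they were all above those of the main setting. With the replicate number as a block, the density difference between conditions was -0.15 (exact sign-flip test over 2 pairs, *p* = 0.5). Same-numbered libraries deviated together with r = 0.15 over 63 windows, and the labels do not say that the number marks a shared batch.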
